A study of Mus musculus with 11 samples.

Results

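The 26 genes described here code for the enzymes of cholesterol synthesis, for SREBP2 and the proteins that control it, and for a few further genes that SREBP2 or sterols regulate. They were chosen by gene symbol, and every probe that the platform annotation assigns to 1 of those symbols was taken. The annotation gave a probe for 23 of the 26 genes, 42 probes of the 45281 on the array, which names 19057 genes in all. Hmgcs1, Fdft1 and Acat2 had none and were not analysed here. A probe was kept in a tissue where its detection p-value was under 0.05 on at least 2 arrays of that tissue, which left 34 probes for 21 genes in liver and 33 probes for 21 genes in spleen. Ggps1, the geranylgeranyl diphosphate synthase, was detected on 0 arrays of either tissue. Mylip, a ubiquitin ligase that marks lipoprotein receptors for breakdown, was detected on 0 liver arrays by either of its probes and on 2 spleen arrays by the probe kept. Mvk was detected on 6 liver arrays and on 1 spleen array, so it was kept in liver only.

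The arrays came from Her2/neu transgenic mice, a mouse model of mammary cancer, that were given Curaxin-137 in the drinking water or plain water during 10 weeks, begun at 4 weeks of age and ended at 14. Curaxin-137 is a DNA-binding small molecule of the curaxin class, known for activating p53 and restraining NF-kappaB. Livers came from mice given 0.1 mg/ml (replicates 43 and 55), 0.2 mg/ml (replicates 73 and 85) or plain water (controls, replicates 1 and 25), with 2 arrays a group. Spleens came from mice given 0.1 mg/ml (replicates 32 and 56), 0.2 mg/ml (replicates 62 and 62_86) or plain water (replicate 8), and the 2 names of the 0.2 mg/ml spleens share the number 62. The labels do not say whether those 2 arrays come from separate animals; their correlation, 0.989, was the highest of any spleen pair. All groups carry the transgene; the promoter that drives it, and the strain, are not given in the sources used here. With 2 arrays a group, or 1 for control spleen, precision is limited by how few arrays there are, and a p-value measures only the spread between these samples. In tissue RNA, fewer cells of a type and less RNA per cell cannot be told apart.

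Animal cells make cholesterol from acetyl units through mevalonate, farnesyl diphosphate, squalene and lanosterol. The transcription factor SREBP2, the product of Srebf2, is held in the endoplasmic reticulum membrane with its escort SCAP, and sterols keep the pair there by binding SCAP to an INSIG protein. When sterols run low the escort carries SREBP2 to the Golgi, where proteases release its active part, and the genes of the pathway, Srebf2 and Insig1 among them, are transcribed together. The liver is a main site of this synthesis in the body.

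The arrays matched their tissue labels. Apoa1 and Ttr, hepatocyte genes, averaged 13.34 ± 0.15 and 13.33 ± 0.16 in liver against 4.64 ± 0.19 and 4.82 ± 0.27 in spleen (log2 intensity, SD over 6 and 5 arrays). Cd79b and Cd22, B cell genes, averaged 4.36 ± 0.26 and 4.16 ± 0.05 in liver against 11.87 ± 0.37 and 9.46 ± 0.62 in spleen. Between 35.8% and 43.2% of all probes were detected on each array. The 2 control livers were less alike than the treated pairs. The correlation over the features tested was 0.989 within the 0.1 mg/ml pair, 0.992 within the 0.2 mg/ml pair and 0.971 between the 2 controls. With the treated livers, control 25 correlated at 0.978 to 0.983 and control 1 at 0.974 to 0.987. These correlations do not single out 1 of the controls. The summed intensity of 4 neutrophil markers was 125 and 93.3 at 0.1 mg/ml, 254 and 377 at 0.2 mg/ml, and 126 and 4310 in control livers 1 and 25. In log2, Lcn2 was the brightest of the 4 on control 25 (11.50) and at 0.2 mg/ml (7.10 and 8.05), against 4.53 on control 1. At 0.2 mg/ml S100a8 read 5.88 and 5.89, S100a9 5.27 and 5.12, and Retnlg 4.27 and 4.18. On control 1 these read 5.48, 5.21 and 4.42. The higher sum at 0.2 mg/ml than on control 1 was thus mostly that of Lcn2. Spleen replicate 56 at 0.1 mg/ml had a mean signal of 219 before normalization, against 94.7 to 128 on the other spleen arrays. With the control spleen, replicates 56 and 32 correlated at 0.952 and 0.949, and 62 and 62_86 at 0.979 and 0.972. Spleen replicate 32 at 0.1 mg/ml also stood apart in cell markers. Its summed intensities were 4870 for 7 markers of dividing cells and 12800 for 8 neutrophil markers. The other spleen arrays had 1150 to 1590 and 1470 to 3640. The part of these cells in the results below was not tested.

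The sequences just upstream of 4 genes are shown because all 4 treated livers read below both control livers and the unadjusted p over both doses was under 0.05 for the brightest probe of each, without passing adjustment: the mevalonate pathway gene Mvd, the late enzyme gene Sc5d, and the regulators Srebf2 and Insig1. Each is the 250 bases before the start of transcription in RefSeq (build GRCm38.p6), 5′ to 3′ along the gene, and the capitals mark CACCCCA (the core of a sterol regulatory element), CCAAT (the box read by NF-Y), GGGCGG (the GC box read by SP1) and CACGTG (an E box) on either strand.
Mvd, chr8:122443423-122443672, minus strand: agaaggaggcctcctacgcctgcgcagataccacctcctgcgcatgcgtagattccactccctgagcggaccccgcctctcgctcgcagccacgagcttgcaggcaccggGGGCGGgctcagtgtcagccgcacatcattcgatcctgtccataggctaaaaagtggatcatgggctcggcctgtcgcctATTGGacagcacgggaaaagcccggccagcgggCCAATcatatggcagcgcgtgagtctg
Sc5d, chr9:42264301-42264550, minus strand: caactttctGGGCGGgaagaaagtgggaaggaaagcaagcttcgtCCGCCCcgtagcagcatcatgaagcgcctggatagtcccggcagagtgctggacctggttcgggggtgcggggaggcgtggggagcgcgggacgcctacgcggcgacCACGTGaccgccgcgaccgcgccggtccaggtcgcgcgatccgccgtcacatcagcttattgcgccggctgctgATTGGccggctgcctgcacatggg
Srebf2, chr15:82147019-82147268, plus strand: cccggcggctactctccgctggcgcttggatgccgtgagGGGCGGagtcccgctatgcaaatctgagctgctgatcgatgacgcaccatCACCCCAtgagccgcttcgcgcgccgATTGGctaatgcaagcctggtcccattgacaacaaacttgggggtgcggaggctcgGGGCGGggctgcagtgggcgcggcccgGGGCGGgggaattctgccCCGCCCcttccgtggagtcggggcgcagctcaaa
Insig1, chr5:28071162-28071411, plus strand: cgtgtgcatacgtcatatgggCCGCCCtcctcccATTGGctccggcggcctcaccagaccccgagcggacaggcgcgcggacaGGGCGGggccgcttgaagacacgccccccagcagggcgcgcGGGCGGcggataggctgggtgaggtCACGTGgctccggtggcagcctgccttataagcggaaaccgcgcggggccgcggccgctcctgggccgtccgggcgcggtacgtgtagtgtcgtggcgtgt
No match overlapped another in these windows. The Srebf2 window holds CACCCCA at -161 (counted from the start of transcription) with a CCAAT box on the other strand at -135 and a GC box at -79. The Mvd window holds CCAAT boxes at -60 and -27, and the Insig1 window holds an E box at -101. RefSeq gave a window for 22 of the 26 genes. A CCAAT box was found in 20 of those 22 genes (90.9%), against 37.5% of the 27025 genes with a window, and a GC box in 19 of 22 (86.4%), against 35.4%. The E box was found in 6 of 22, against 6.86% of all genes, and CACCCCA in 3 of 22 (Hmgcs1, Acat2 and Srebf2), against 7.64%. A longer sterol element, TCACNCCAC, was found in Hmgcs1 alone of the 22, against 1.22% of all genes. These are letter matches in a short window and show no binding.

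In liver, the sterol genes read lower after Curaxin-137 than in the mean of the 2 controls, and none of them passed the test. At 0.1 mg/ml, 19 of the 21 genes read lower with a median log2 difference of -0.50 (all 12800 features tested: 50.5% lower, -0.003). At 0.2 mg/ml it was 20 of 21 with -0.32 (features: 48.6% lower, 0.008). Over both doses it was 20 of 21 with -0.45 (features: 49.7% lower, 0.001). Within the controls the genes were far apart. Control 25 was the highest of the 6 liver arrays for 19 of the 21 genes, as it was for 18.6% of all features, and it read above control 1 for 19 of 21 (51.1% of features) and by over 0.5 log2 for 15 of 21 (11% of features). The median gap between the 2 controls was 0.72 for these genes and 0.24 for all features, and it was larger than the whole range of the 4 treated livers for 16 of 21 (30.5% of features). Of the 84 treated values, 47 lay below both controls (56%; 29.7% over all features), 36 between them (42.9%; 39.5%) and 1 above both (1.19%; 30.8%).

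**Figure D1:**
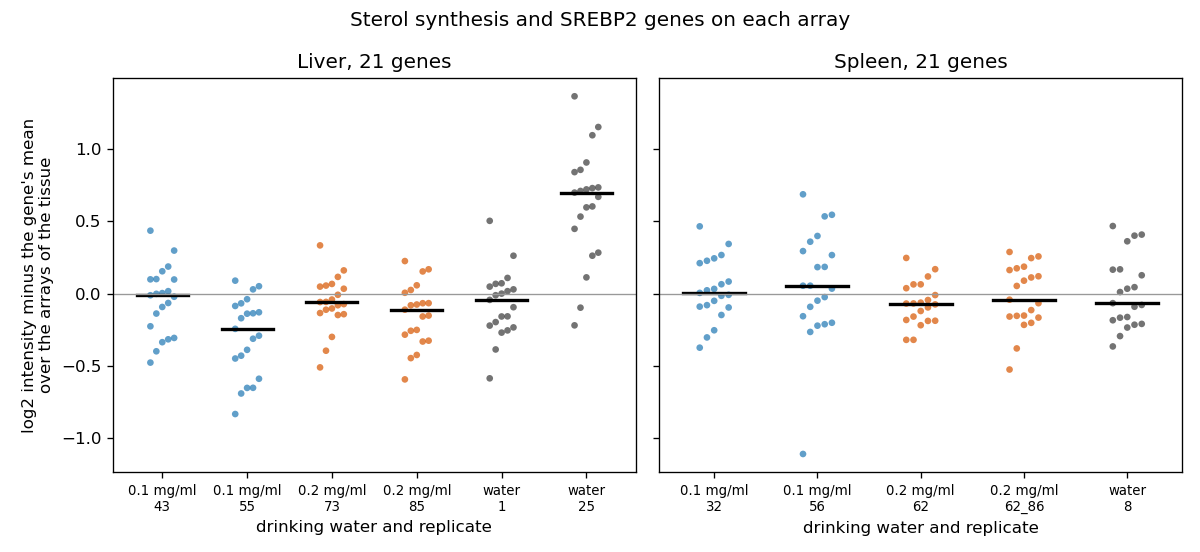
Each point is 1 sterol synthesis or SREBP2 gene, plotted as its log2 intensity minus its own mean over the arrays of the tissue (y axis) on each array (x axis, dose in the drinking water and replicate), with the median as a bar. In liver the median was 0.70 on control 25 and between -0.25 and -0.01 on the other 5 arrays; in spleen the medians lay between -0.07 and 0.06.

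The test gave no call. With limma and Benjamini-Hochberg adjustment over all features, the smallest adjusted p among the 21 genes was 0.984 at 0.1 mg/ml, 0.423 at 0.2 mg/ml and 0.823 over both doses, and 0% of all features passed 0.05 in each of these comparisons, which share the 2 control arrays. Before adjustment, 6 of the 21 genes read lower with p under 0.05 at 0.1 mg/ml (1.88% of features), 2 of 21 at 0.2 mg/ml (3.84%) and 5 of 21 over both doses (2.56%). All 4 treated livers lay below both controls for 7 of the 21 genes, against 5.86% of features, and above both for 0 of 21, against 6.91%. At 0.1 mg/ml alone both livers lay below both controls for 10 of 21 (15.1%) and above for 0 (15.1%), and at 0.2 mg/ml for 8 of 21 (18.5%) and 0 (20.2%).

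Set against each control alone, the picture differed. Over both doses the median log2 difference from control 25 was -0.84, with 19 of 21 genes lower (features: median 0.003, 49.5% lower). From control 1 it was -0.07, with 12 of 21 genes lower (features: 0.017, 47.6% lower). By dose, the medians were -0.85 at 0.1 mg/ml and -0.68 at 0.2 mg/ml from control 25, and -0.15 and 0.01 from control 1. Every treated liver lay below control 25 for 19 of 21 genes, against 21.3% of features, and below control 1 for 8 of 21, against 22.7%. The summed intensity of the 21 genes was 11400 and 9570 at 0.1 mg/ml, 11600 and 10400 at 0.2 mg/ml, and 11000 and 18200 in controls 1 and 25. Without control 1, 7 of the 21 genes passed at 0.1 mg/ml (2.38% of features), 4 at 0.2 mg/ml (1.47%) and 6 over both doses (Insig1, Rdh11, Sqle, Scap, Idi1 and Mvd; 1.68%), all lower. Without control 25, 0 passed at 0.1 mg/ml (0.17% of features), 1 at 0.2 mg/ml (Stard4; 4.93%) and 0 over both doses (0.945%). In both cases the remaining control was assumed to vary like the treated pairs.

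**Figure D2:**
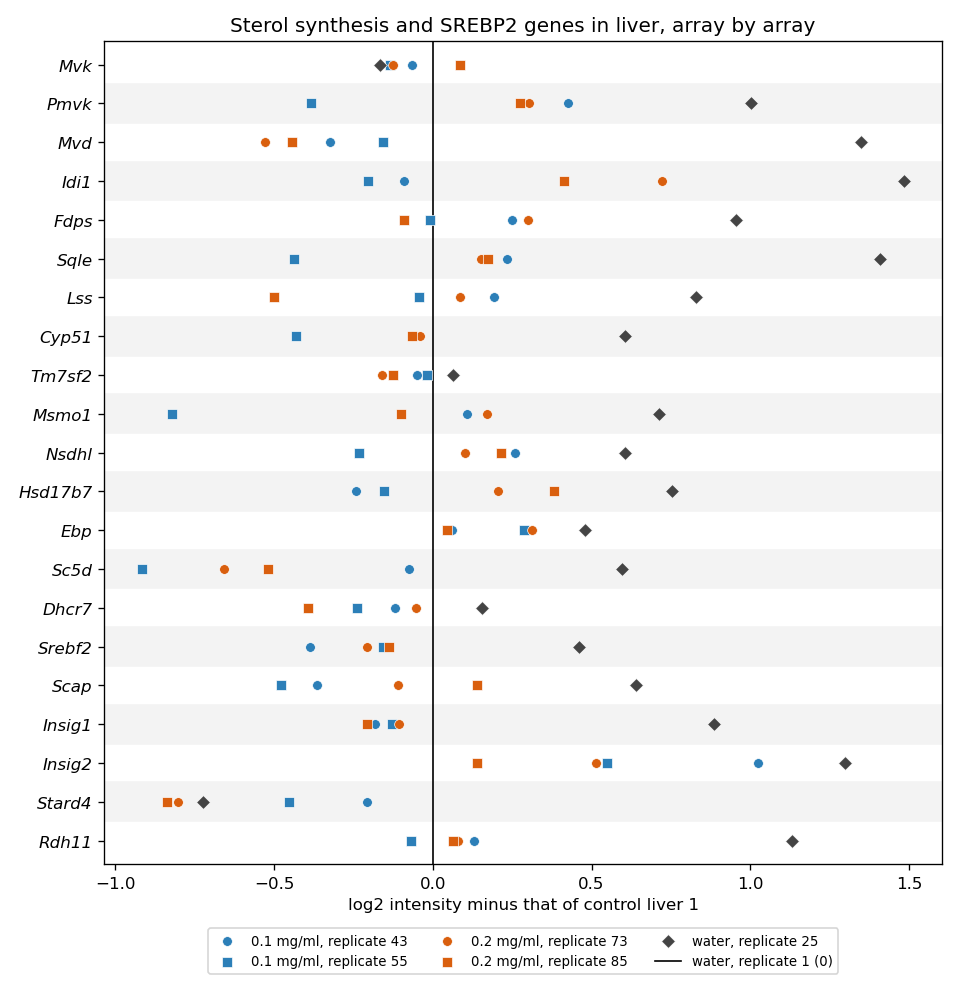
For each of the 21 genes kept in liver (rows, in pathway order), points give the log2 intensity on an array minus that of control liver 1, which is the line at 0 (x axis, log2). The diamond of control 25 lies to the right of every treated point in 19 rows; in the rows of Mvk and Stard4 it lies to the left of 0.

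The values that follow are log2 intensities, given for replicates 43 and 55, replicates 73 and 85, and controls 1 and 25 in that order, and each fitted difference is the mean of both doses minus control ± its standard error, with adjusted p-values between 0.823 and 0.992 for the 21 genes in the limma fit. In the mevalonate arm, 4 of the 5 genes kept read lower than the 2 controls, with a median of -0.37, and control 25 was the highest array for 4 of 5. Mvd, the mevalonate diphosphate decarboxylase, read 5.93 and 6.10 at 0.1 mg/ml, 5.73 and 5.82 at 0.2 mg/ml, and 6.26 and 7.61 in the controls. All 4 treated livers were below both controls, and control 25 read 1.35 above control 1. The fitted difference, -1.04 ± 0.32 (fold 0.487, adjusted p = 0.823), was the largest of the set in size; it was -0.36 from control 1 and -1.71 from control 25. Idi1, the isopentenyl diphosphate isomerase, read 6.46 and 6.34 at 0.1 mg/ml, 7.27 and 6.96 at 0.2 mg/ml, and 6.55 and 8.03 in the controls. The livers at 0.1 mg/ml lay below both controls and those at 0.2 mg/ml between them, and the fitted difference was -0.53 ± 0.35. It was 0.21 from control 1 and -1.27 from control 25, opposite in sign.

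Fdps, the farnesyl diphosphate synthase, read 10.96 and 10.70 at 0.1 mg/ml, 11.01 and 10.62 at 0.2 mg/ml, and 10.71 and 11.66 in the controls. The treated livers lay on either side of control 1 and all below control 25, with a fitted difference of -0.36 ± 0.26. Pmvk, the phosphomevalonate kinase, read 6.95 and 6.14 at 0.1 mg/ml, 6.83 and 6.80 at 0.2 mg/ml, and 6.52 and 7.53 in the controls. Only replicate 55 was below both controls, and the fitted difference was -0.34 ± 0.30. Mvk, the mevalonate kinase, read 4.49 and 4.42 at 0.1 mg/ml, 4.43 and 4.64 at 0.2 mg/ml, and 4.55 and 4.39 in the controls. It was dim on every array, its control 25 was the lowest of the 6, and its fitted difference was 0.02 ± 0.14. From control 1 the treated means of Fdps and Pmvk stood at 0.11 and 0.15, and from control 25 at -0.84 and -0.85.

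The enzymes that oxidise squalene and close it into lanosterol showed the same split between the controls. Sqle, the squalene epoxidase and a flux-controlling step, read 9.34 and 8.67 at 0.1 mg/ml, 9.26 and 9.28 at 0.2 mg/ml, and 9.11 and 10.52 in the controls. Replicate 55 was the lowest, the other 3 treated livers lay between the controls, and the fitted difference was -0.67 ± 0.36 (adjusted p = 0.867). Lss, the lanosterol synthase, read 8.33 and 8.09 at 0.1 mg/ml, 8.22 and 7.64 at 0.2 mg/ml, and 8.14 and 8.97 in the controls. Replicates 55 and 85 were below both controls and 43 and 73 between them, with a fitted difference of -0.48 ± 0.26. From control 1, Sqle stood at 0.03 and Lss at -0.07.

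All 8 genes of the steps between lanosterol and cholesterol read lower than the 2 controls together, with a median of -0.30, and control 25 was the highest array for all 8. From control 1 alone 5 of the 8 read lower, with a median of -0.12. Cyp51, the lanosterol demethylase, read 8.49 and 8.12 at 0.1 mg/ml, 8.51 and 8.49 at 0.2 mg/ml, and 8.55 and 9.16 in the controls. Each treated liver was below both controls, with 43, 73 and 85 close under control 1, and the fitted difference was -0.45 ± 0.20. Tm7sf2, the sterol reductase that acts after it, read 7.68 and 7.71 at 0.1 mg/ml, 7.57 and 7.61 at 0.2 mg/ml, and 7.73 and 7.79 in the controls. Its treated livers were also all below both controls, but by little: the controls differed by only 0.06 and the fitted difference was -0.12 ± 0.13. Msmo1, the methylsterol monooxygenase, read 10.79 and 9.86 at 0.1 mg/ml, 10.85 and 10.58 at 0.2 mg/ml, and 10.68 and 11.39 in the controls. Replicate 55 was far below the rest, and the fitted difference was -0.52 ± 0.29.

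Nsdhl, the decarboxylating sterol dehydrogenase, read 7.07 and 6.58 at 0.1 mg/ml, 6.91 and 7.03 at 0.2 mg/ml, and 6.81 and 7.42 in the controls. Apart from replicate 55, its treated livers lay between the controls (fitted difference -0.22 ± 0.21). Hsd17b7, the reductase of the same demethylation complex, read 9.79 and 9.88 at 0.1 mg/ml, 10.24 and 10.41 at 0.2 mg/ml, and 10.03 and 10.79 in the controls. Here the doses were apart: the livers at 0.1 mg/ml were below both controls and those at 0.2 mg/ml between them, with -0.58 ± 0.24 and -0.08 ± 0.24 in the fits by dose. Ebp, the sterol isomerase, read 10.07 and 10.30 at 0.1 mg/ml, 10.32 and 10.05 at 0.2 mg/ml, and 10.01 and 10.49 in the controls. Its treated livers all lay between the controls, and the fitted difference was -0.06 ± 0.18.

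Sc5d, the sterol desaturase, read 7.29 and 6.45 at 0.1 mg/ml, 6.71 and 6.85 at 0.2 mg/ml, and 7.37 and 7.96 in the controls. Every treated liver was below both controls, with replicate 43 only just under control 1, and the fitted difference was -0.84 ± 0.26 (fold 0.559, adjusted p = 0.823). It kept its sign against each control, at -0.54 from control 1 and -1.14 from control 25. Dhcr7, the reductase of the last step, read 8.24 and 8.12 at 0.1 mg/ml, 8.31 and 7.97 at 0.2 mg/ml, and 8.36 and 8.51 in the controls. Its treated livers too lay below both controls, the controls differed by 0.15, and the fitted difference was -0.28 ± 0.15.

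The 4 genes that control SREBP2 read lower as well, with a median of -0.49 from both controls and -0.18 from control 1. Srebf2 itself read 5.61 and 5.84 at 0.1 mg/ml, 5.79 and 5.86 at 0.2 mg/ml, and 5.99 and 6.46 in the controls. All 4 treated livers were below both controls, and the fitted difference was -0.45 ± 0.17 (fold 0.730, adjusted p = 0.823), -0.22 from control 1 and -0.68 from control 25. Its second probe read 5.06 and 4.89 at 0.1 mg/ml, 5.20 and 4.89 at 0.2 mg/ml, and 5.50 and 5.34 in the controls. There too the treated livers were below both controls, but control 25 was the lower control. Insig1, the sterol-induced retention protein and itself an SREBP2 target, read 9.73 and 9.79 at 0.1 mg/ml, 9.81 and 9.71 at 0.2 mg/ml, and 9.91 and 10.80 in the controls. Its treated livers spanned 0.10 and lay below both controls, and the fitted difference was -0.60 ± 0.23 (adjusted p = 0.823), -0.16 from control 1 and -1.04 from control 25. The 2 further probes of Insig1 gave smaller differences, -0.13 and -0.21, and on each of them 3 of the 4 treated livers read above control 1.

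Insig2, the second retention protein, read 9.18 and 8.70 at 0.1 mg/ml, 8.67 and 8.29 at 0.2 mg/ml, and 8.15 and 9.45 in the controls. All 4 treated livers lay between the controls, and the fitted difference of -0.09 ± 0.33 lies between 0.56 from control 1 and -0.74 from control 25. Scap, the escort protein, read 7.23 and 7.11 at 0.1 mg/ml, 7.48 and 7.73 at 0.2 mg/ml, and 7.59 and 8.23 in the controls. Replicate 85 lay between the controls and the other 3 below both, with a fitted difference of -0.53 ± 0.20. Its second probe went the other way: it read 4.89 and 5.20 at 0.1 mg/ml, 4.94 and 4.99 at 0.2 mg/ml, and 4.53 and 4.81 in the controls. Of the 13 further probes of genes with several, 12 had the sign of the probe given here and this one did not: its difference was 0.33 where the first Scap probe had -0.53.

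The remaining genes split. Stard4, a carrier of cholesterol between membranes, read 10.00 and 9.76 at 0.1 mg/ml, 9.40 and 9.37 at 0.2 mg/ml, and 10.21 and 9.48 in the controls. With Mvk it was 1 of 2 genes for which control 25 was the lower control; the livers at 0.2 mg/ml were below both controls and those at 0.1 mg/ml between them. Its fitted difference was 0.03 ± 0.24 at 0.1 mg/ml and -0.46 ± 0.24 at 0.2 mg/ml, and -0.57 over both doses from control 1. Rdh11, a retinol dehydrogenase that SREBPs regulate, read 9.30 and 9.11 at 0.1 mg/ml, 9.26 and 9.24 at 0.2 mg/ml, and 9.18 and 10.31 in the controls. The 4 treated livers spanned 0.20 and lay close to control 1, with control 25 higher by 1.13. The fitted difference was -0.51 ± 0.28. Its second probe read 7.71 and 7.20 at 0.1 mg/ml, 7.29 and 7.05 at 0.2 mg/ml, and 7.66 and 8.26 in the controls. There replicates 55, 73 and 85 lay below both controls, and the difference was -0.65 ± 0.22.

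**Figure D3:**
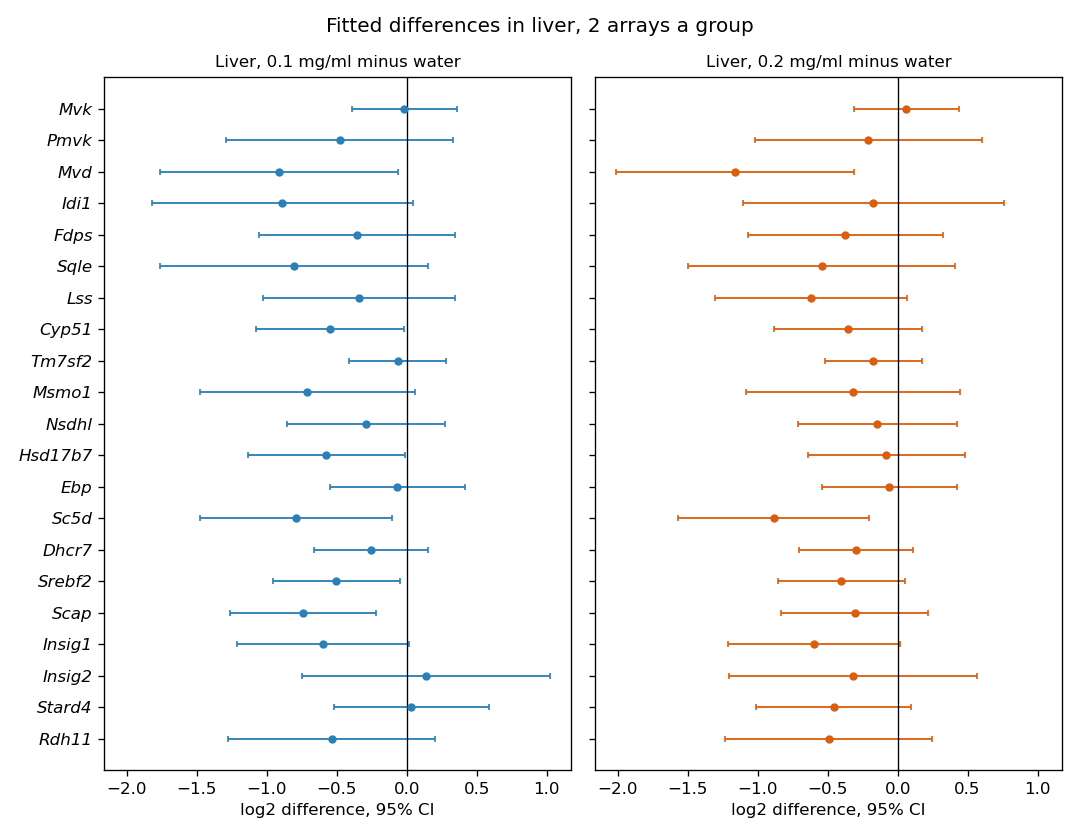
Fitted log2 differences in liver for the 21 genes (rows), with 95% confidence intervals, for 0.1 mg/ml minus water (left) and 0.2 mg/ml minus water (right). Most points lie left of 0; the intervals do not account for the number of features tested, and none of the adjusted p-values passed 0.05.

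Set against each other, the 2 doses gave no call either, with 0% of features called. At 0.2 against 0.1 mg/ml, 9 of the 21 genes read lower and 12 higher, with a median of 0.04 (features: 48.5% lower, 0.009). The smallest adjusted p in the limma fit was 0.559, and 0 genes had an unadjusted p under 0.05, against 9.51% of features. Both livers at 0.2 mg/ml lay below both at 0.1 mg/ml for 4 of 21 (Stard4, Insig2, Tm7sf2 and Mvd; 22.8% of features) and above for 3 of 21 (Hsd17b7, Scap and Idi1; 25.3%). Idi1 stood at 0.71 ± 0.41, Hsd17b7 at 0.49 ± 0.24 and Stard4 at -0.49 ± 0.24. Replicate 55 was the lowest of the 6 liver arrays for 9 of the 21 genes, against 14.2% of features.

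Related gene lists in liver did not all share the pattern, and 0 of their genes passed the test in any comparison in liver. Of 17 sterol and isoprenoid genes outside the set, 10 read lower over both doses with a median of -0.02 (features: 49.7% lower, 0.001). Among them Erg28, a scaffold of the demethylation complex, stood at -0.26 ± 0.14, Lbr, a sterol reductase of the nuclear envelope, at -0.28 ± 0.18, Acss2, an acetyl-CoA synthetase, at -0.37 ± 0.28, and Coq2, of ubiquinone synthesis, at 0.20 ± 0.18. Control 25 was the highest array for 7 of the 17. Of 15 genes of SREBP processing and sterol sensing, 7 read lower with a median of 0.02; Sec24d and Sec23a, coat proteins of vesicles leaving the endoplasmic reticulum, stood at -0.38 ± 0.15 and 0.41 ± 0.17, Srebf1, the sister factor of Srebf2, at -0.27 ± 0.17, and Tmem33 at 0.20 ± 0.15.

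Of 17 genes of sterol uptake, storage, export and breakdown, 8 read lower, with a median of 0.001. Abcg8, which exports sterols into bile, read 9.77 and 9.54 at 0.1 mg/ml, 9.89 and 10.04 at 0.2 mg/ml, and 9.32 and 8.73 in the controls. All its treated livers were above both controls, with a difference of 0.79 ± 0.19 (adjusted p = 0.749). Npc1, which moves cholesterol out of lysosomes, stood at 0.49 ± 0.13, Stard5, a sterol carrier, at 0.37 ± 0.13, and Scarb1, a lipoprotein receptor, at -0.45 ± 0.15. All 14 fatty acid synthesis genes read lower, with a median of -0.31 (features: 49.7% lower). From control 1 alone 10 of 14 did, with -0.18 (features: 47.6% lower). Fasn, the fatty acid synthase, stood at -0.42 ± 0.14, Elovl5, an elongase, at -0.38 ± 0.16, Gpam, an acyltransferase, at -0.44 ± 0.22 and Pnpla3, a lipase, at -1.45 ± 0.55. The Fasn probe was dim, between 4.26 and 4.88 over the liver arrays. It was the dimmest of the list at 0.2 mg/ml, where 1 gene of the list was undetected on each liver. Pnpla3 read 7.48 in control 25 and between 4.73 and 4.99 on the other 5 arrays.

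Neutrophil and dividing cell markers in liver were highest on control 25. The 4 neutrophil markers read lower over both doses, with a median of -1.86, with S100a8 at 9.81 in control 25 and between 4.56 and 5.89 elsewhere; the median of their difference from control 1 was -0.15. The 7 markers of dividing cells were all highest on control 25. Over both doses, markers of macrophages (10 of 10), fibroblasts (7 of 7), sinusoidal endothelium (6 of 8) and hepatocytes (5 of 6) read higher. Their medians were 0.27, 0.36, 0.47 and 0.19. Of all features, 49.7% read lower, with a median of 0.001. From control 1 alone the macrophage median was 0.53 with 0 of 10 lower, and from control 25 it was 0.04 with 3 of 10 lower. Against control 1, 3 of 7 fibroblast, 2 of 8 endothelial and 1 of 6 hepatocyte markers read lower, with medians of 0.31, 0.45 and 0.16. Against control 25, 0 of 7, 2 of 8 and 0 of 6 did, with medians of 0.34, 0.41 and 0.25. Of all features, 47.6% read lower than control 1 and 49.5% lower than control 25. T cell (3 of 4 higher, median 0.18), erythroid (1 of 3, -0.10) and pancreatic acinar (1 of 2, 0.05) markers did not share a direction. The summed hepatocyte marker intensity was 48400 and 48700 at 0.1 mg/ml, 49900 and 49900 at 0.2 mg/ml, and 44000 and 40100 in controls 1 and 25. It was lowest on control 25, the 1 array where the sterol genes were highest. It was next lowest on control 1, whose sterol gene sum of 11000 lay within the treated range of 9570 to 11600. Whether these cells have a part in the sterol values was not tested.

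In spleen, the sterol genes showed no shared direction. At 0.1 mg/ml 8 of the 21 genes kept read lower than the 1 control, with a median of 0.17 (features: 48.2% lower, 0.019). At 0.2 mg/ml 15 of 21 did, with -0.08 (features: 50.5% lower, -0.003). At 0.2 against 0.1 mg/ml it was 13 of 21, with -0.08 (features: 51.4% lower, -0.010). None passed: the smallest adjusted p-values were 0.535, 0.969 and 0.546, with 0%, 0% and 0.00705% of all features called. At an unadjusted p under 0.05 there were 0 genes at 0.1 mg/ml (9.79% of features), 0 at 0.2 mg/ml (5.68%) and 1, Lss, between the doses (9.01%). All 4 treated spleens lay below the control for 5 of 21 (Stard4, Scap, Insig1, Sc5d and Mylip), against 22.2% of features, and above it for 4 of 21 (Fdps, Ebp, Mvd and Nsdhl), against 22%. Both spleens at 0.2 mg/ml lay below both at 0.1 mg/ml for 6 of 21 (20%) and above for 1 (20.4%).

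**Figure D4:**
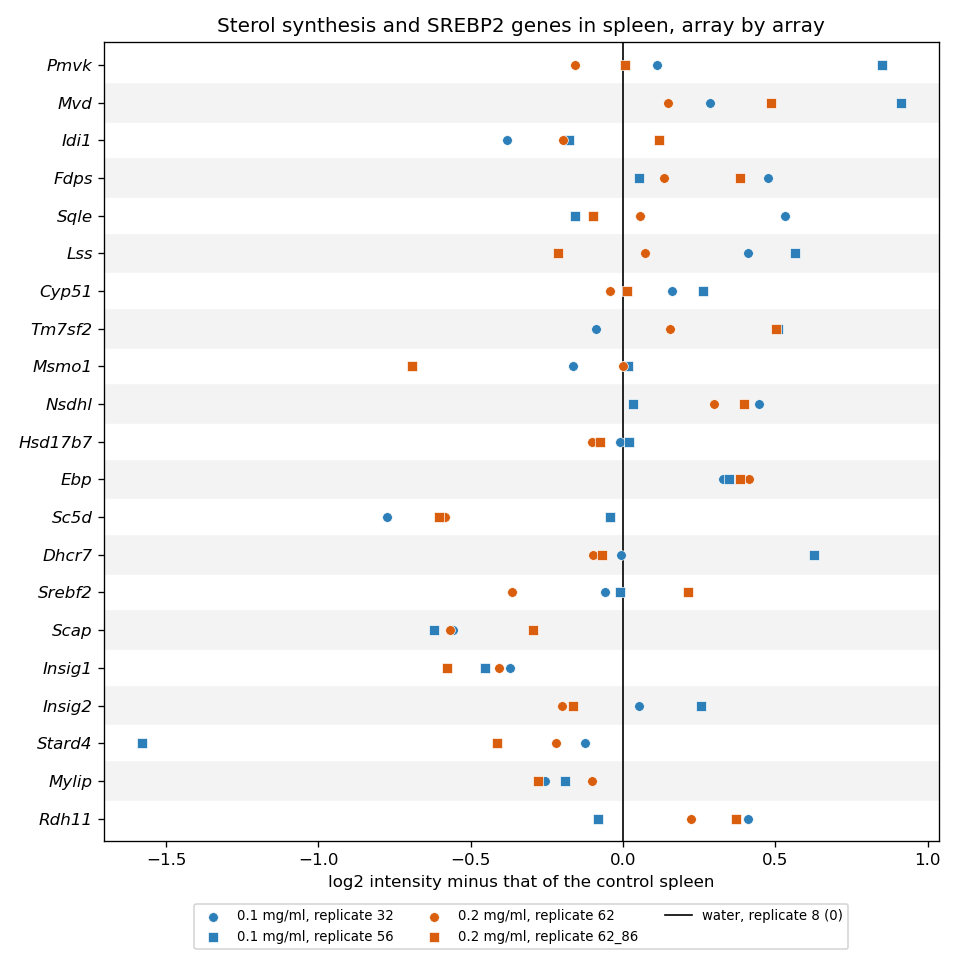
For each of the 21 genes kept in spleen (rows, in pathway order), points give the log2 intensity on a treated array minus that of the 1 control spleen, which is the line at 0 (x axis, log2). The Stard4 point of replicate 56 at 0.1 mg/ml lies farthest to the left.

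Values below are for replicates 32 and 56, replicates 62 and 62_86, and control 8 in that order. Insig1 read 6.35 and 6.26 at 0.1 mg/ml, 6.31 and 6.14 at 0.2 mg/ml, and 6.72 in the control, so every treated spleen was lower, with -0.41 ± 0.27 at 0.1 mg/ml and -0.49 ± 0.27 at 0.2 mg/ml. On its 2 further probes spleen 62 read above the control (5.19 and 5.30 on spleen 62, against 5.04 and 4.76 on the control). Scap read 6.50 and 6.44 at 0.1 mg/ml, 6.49 and 6.76 at 0.2 mg/ml, and 7.06 in the control, lower on all 4 as well, with -0.59 ± 0.28 and -0.43 ± 0.28. Its second probe did not share this: it read 6.20 and 6.60 at 0.1 mg/ml, 6.46 and 6.49 at 0.2 mg/ml, and 6.31 in the control. On that probe only replicate 32 was lower than the control. Sc5d read 4.50 and 5.23 at 0.1 mg/ml, 4.69 and 4.67 at 0.2 mg/ml, and 5.27 in the control; replicate 56 was close under the control and the other 3 were further below it (-0.41 ± 0.36 and -0.59 ± 0.36). Insig2 read 6.56 and 6.77 at 0.1 mg/ml, 6.31 and 6.35 at 0.2 mg/ml, and 6.51 in the control, on either side of the control by dose (0.15 ± 0.27 and -0.18 ± 0.27). The other Insig2 probe kept in spleen did not split by dose. It read 5.31 and 6.01 at 0.1 mg/ml, 5.89 and 5.51 at 0.2 mg/ml, and 5.86 in the control.

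Mvd read 5.75 and 6.37 at 0.1 mg/ml, 5.61 and 5.95 at 0.2 mg/ml, and 5.46 in the control, higher than the control on all 4 arrays and most on replicate 56 (0.60 ± 0.35 and 0.32 ± 0.35). Ebp read 7.73 and 7.76 at 0.1 mg/ml, 7.82 and 7.79 at 0.2 mg/ml, and 7.41 in the control; the 4 treated spleens were close to each other and above the control (0.34 ± 0.26 and 0.40 ± 0.26). Pmvk read 5.28 and 6.02 at 0.1 mg/ml, 5.01 and 5.18 at 0.2 mg/ml, and 5.17 in the control, where replicate 56 alone stood out. Lss read 5.81 and 5.97 at 0.1 mg/ml, 5.47 and 5.19 at 0.2 mg/ml, and 5.40 in the control, and its difference between the doses, -0.56 ± 0.23, had an adjusted p of 0.546. Stard4 read 5.98 on replicate 56 and between 7.15 and 7.56 on the other 4 arrays. Without replicate 32, 3 of 21 genes passed at 0.1 mg/ml (Stard4 at -1.60, Mvd at 0.94 and Pmvk at 0.88), against 9.45% of features, and 2 of 21 between the doses (Stard4 at 1.28 and Pmvk at -0.96), against 8.77%. Without replicate 56, 0 genes passed in either comparison, against 15.2% and 13.3% of features. In the fit without replicate 32, replicate 56 was the only array at 0.1 mg/ml, with its spread borrowed from the 2 arrays at 0.2 mg/ml.

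Tm7sf2 and Mylip were near the detection limit in spleen. Tm7sf2 was detected on 1 of 2 arrays at 0.1 mg/ml, on both at 0.2 mg/ml and not on the control. It read 4.265 and 4.863 on replicates 32 and 56, 4.506 and 4.857 on 62 and 62_86, and 4.353 on the control. Replicate 32 thus read below the control. The fitted differences were 0.21 ± 0.35 at 0.1 mg/ml and 0.33 ± 0.35 at 0.2 mg/ml. For a fold, the control was set to no less than the dimmest detected probe of that array. At 0.2 mg/ml, where both arrays detected it, the group mean was then at least 1.22-fold higher. No bound is given at 0.1 mg/ml, where 1 of 2 arrays did not detect it. The bound leaves out the spread between arrays. The kept Mylip probe was detected on 0 of 2 arrays at 0.1 mg/ml, on 1 of 2 at 0.2 mg/ml and on the control. A second Mylip probe, detected on 1 spleen array and not kept, was brightest on replicate 32 at 0.1 mg/ml (4.57), so no fold is given for the gene. The other 10 genes kept in spleen differed from the control by between -0.35 and 0.35 log2 at each dose.

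Between tissues the sterol genes differed widely. With all 11 arrays normalized together, 20 of the 22 genes kept were higher in liver than in spleen and 1 was lower (limma, adjusted p under 0.05), against 25.6% of 16179 features higher and 36.7% lower, and the median difference was 2.63 log2 (features: -0.07). By over 2 log2, 17 of 22 were higher in liver, against 7.13% of features. Insig1 had the largest difference: 9.92 ± 0.37 in liver and 6.06 ± 0.22 in spleen (SD, 6 and 5 arrays), 3.81 ± 0.14 (fold 14.0, adjusted p = 1.63e-08). Msmo1 followed, with 10.58 ± 0.46 in liver and 6.93 ± 0.31 in spleen and a difference of 3.62 ± 0.21, then Tm7sf2, with 7.91 ± 0.08 in liver and 4.48 ± 0.21 in spleen and 3.46 ± 0.11; Tm7sf2 was detected on 3 of 5 spleen arrays. Of these genes, the lowest liver array was above the highest spleen array.

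Along the pathway, of the mevalonate genes Fdps stood at 3.20 ± 0.19, Idi1 at 2.50 ± 0.23, Pmvk at 2.01 ± 0.22, Mvd at 1.05 ± 0.23 and Mvk at 0.27 ± 0.10 (adjusted p = 0.0448), the last from a probe detected on 1 of 5 spleen arrays. The Mvk call was lost under 11 alternatives, with adjusted p-values between 0.0601 and 0.112, among them leaving out liver 43, 55, 85 or control 1, or spleen 32, 62 or 62_86. Sqle and Lss stood at 2.75 ± 0.24 and 3.13 ± 0.16. The 8 later enzymes lay between 2.40 (Nsdhl) and 3.62 (Msmo1). Stard4 was higher in liver by 2.81 ± 0.25, Insig2 by 2.65 ± 0.20 and Rdh11 by 2.12 ± 0.19. Mylip, undetected in all 6 livers, did not pass (-0.08 ± 0.10). Of 11 further probes that were kept in both tissues, 9 were higher in liver, 7 of them by over 2 log2, 1 was lower and 1 did not pass. The further Insig1 probes gave 3.58 and 3.70, near the first, whereas the second Fdps probe gave 0.58 ± 0.22 (adjusted p = 0.0475).

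Srebf2 was the 1 gene lower in liver, with 6.23 ± 0.29 in liver and 7.17 ± 0.21 in spleen and a difference of -0.95 ± 0.14 (fold 0.517, adjusted p = 0.000253), while its second probe showed 0.04 ± 0.11 (adjusted p = 0.776). Scap depended on the probe: 1.38 ± 0.13 for the first and -0.96 ± 0.12 for the second (adjusted p = 1.09e-05 and 0.000103 with every probe tested), in opposite directions. Under scaling by the 75th percentile in place of quantiles, the median of all features moved to 0.21 and the lower calls to 4434 of 9344, where 5945 of 10086 were lower with quantiles; the same 20 genes remained higher and Srebf2 lower, and Mylip turned to 0.32.

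**Figure D5:**
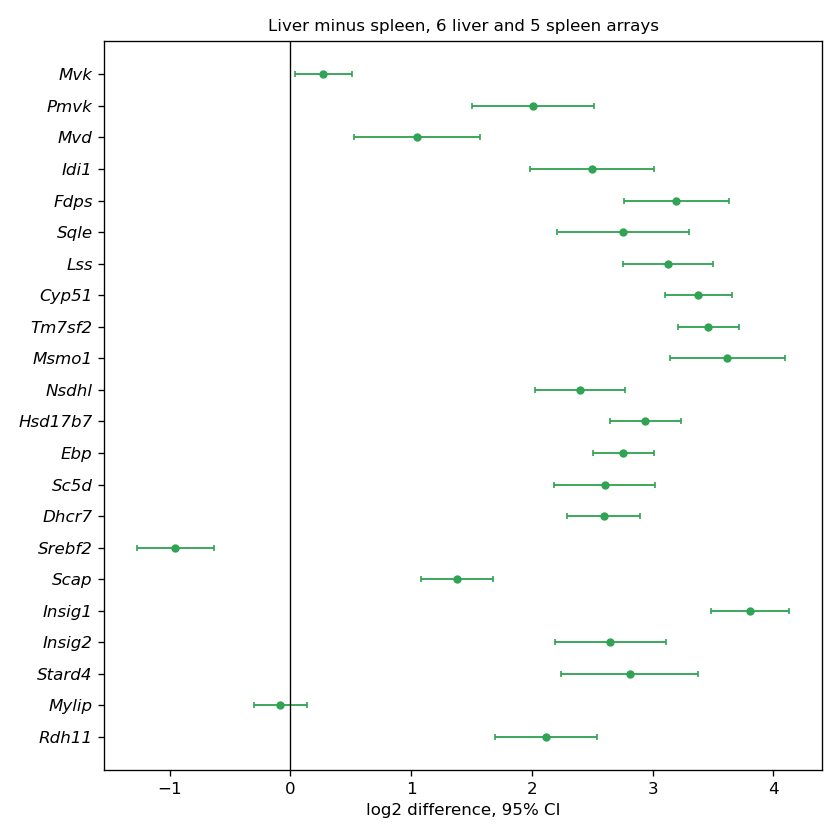
Fitted log2 differences, liver minus spleen, with 95% confidence intervals for 22 genes (rows, in pathway order) over 6 liver and 5 spleen arrays. Srebf2 is the gene whose whole interval lies below 0, Mylip spans 0, and the other 20 lie above 0.

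The liver response was then set against the spleen response in 1 fit of all 11 arrays (the mean of both doses minus control in liver, less the same in spleen). The difference was below 0 for 19 of the 22 genes, with a median of -0.38 (features: 50.9% below 0, -0.008). Of these genes 0 passed, against 0.0371% of features. At an unadjusted p under 0.05 there was 1 gene, Mvd, against 9.12% of features. Its difference was -1.43 ± 0.52 (adjusted p = 0.443 in the limma fit). All 4 treated livers read below both controls (5.86% of features) and all 4 treated spleens above the 1 control (22% of features). Rdh11 stood at -0.70 ± 0.43, Sqle at -0.68 ± 0.55, Fdps at -0.66 ± 0.43 and Stard4 at 0.41 ± 0.57. Without control liver 25 the median was -0.14 and without control liver 1 it was -0.63.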

How the data were processed

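Total RNA from 6 livers and 5 spleens was hybridised to Illumina bead arrays of 45281 probes. The deposited intensity values are probe signals with no background subtraction or scaling between arrays, and each has a deposited detection p-value, per the file headers. The submitters' processing notes name GenomeStudio 1.6.0. The authors' deposited log2 values were compared with the signals and equalled log2 of quantile-normalized signals to within 0.0898, with no background subtraction; they served as an alternative.

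Signals were corrected, given an offset of 16, quantile-normalized and log2-transformed by neqc in limma 3.58.1 (R 4.3.3), within each tissue, and over all 11 arrays for comparisons between tissues. A probe was kept when 2 or more arrays gave it a detection p-value below 0.05. The brightest probe over the arrays of a fit stood for a gene, and probes with no gene symbol were tested as they were. Of all probes, 34885 have 1 gene symbol in the platform annotation, 18 several and 10378 none. limma fitted 1 mean per group with eBayes, and p-values were adjusted over all features by Benjamini-Hochberg with a threshold of 0.05. The fit was tested on simulated data. A fold from a dim gene is understated by the offset.

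All genes of the set with a kept liver probe are given. In spleen, full values are given for the 8 genes with the smallest unadjusted p, and from each related list up to 4 genes by the smallest unadjusted p over both doses in liver. The genes and lists were chosen with earlier results of these data known. Some genes of the lists are not reported here. Alternatives covered scaling, background, offset, detection filter, probes, moderation, arrays in the fit and leaving out each array.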

Additional observations from a re-analysis of the deposited data

Results flagged for a closer look

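Mvd, the mevalonate diphosphate decarboxylase gene, read in opposite directions in the 2 tissues. It was picked for this pattern: all 4 treated livers lay below both control livers, and all 4 treated spleens lay above the 1 control spleen. Of all features, 5.86% had the liver pattern and 22% the spleen pattern. The share with both was not counted. The liver response minus the spleen response was -1.43 ± 0.52 log2 in the limma fit, with an adjusted p of 0.443, so the test of the difference did not pass. Control liver 25 read 1.35 log2 above control liver 1 for this gene.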

How the results depend on the processing

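With 1 array left out at a time, the number of genes called in liver ranged from 0 to 7 at 0.1 mg/ml, 0 to 4 at 0.2 mg/ml and 0 to 6 over both doses, and the median differences from -0.851 to -0.146, -0.668 to 0.016 and -0.846 to -0.064; both ends of each range of medians come from leaving out control 1 or control 25. The highest of these calls came without control 1, where 2.38%, 1.47% and 1.68% of all features were called. Idi1 over both doses ranged from -1.281 without control 1 to 0.209 without control 25. In spleen the calls ranged from 0 to 3 at 0.1 mg/ml and 0 to 2 between the doses, the higher number in both cases without replicate 32, where 9.45% and 8.77% of all features were called, and the medians from -0.004 (without replicate 56) to 0.179 at 0.1 mg/ml and from -0.1 to -0.031 at 0.2 mg/ml. The median of the liver response minus the spleen response ranged from -0.632 to -0.135. The spleen median at 0.1 mg/ml was 0.229 with 75th percentile scaling, 0.134 with no background correction, 0.115 with the authors' values and 0.114 with an offset of 50; at 0.2 mg/ml it was -0.038 with the authors' values and -0.037 with an offset of 50, and between the doses -0.242 with 75th percentile scaling. The liver against spleen median was 2.355 with no background correction, 2.331 with the authors' values and 2.13 with an offset of 50. The cause was not tested. Of 2967 values of single genes under the alternatives, 2932 kept their direction and side of the threshold, apart from 113 sign changes among values that were not called; 23 became called, 11 lost a call, each time Mvk between tissues, and 1 reversed (Idi1, above). The chip as a block was not run, since the headers used here give no chip. No paired analysis was possible because the groups compared share no replicate number. Averaging spleens 62 and 62_86 as 1 sample left 0 calls in each spleen comparison and took the calls between tissues to 20. The number of arrays, and signal near background for Mvk, Fasn in liver, Tm7sf2 in spleen and Mylip, limit these results.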
